A study of Mus musculus with 8 samples.

Results

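The genes described here are 10 mouse genes known from germ cells and from the piRNA pathway: Mael, Ddx4, Tdrd1, Dazl, Sycp3, Stra8, Tex19.1, Prdm1, Sohlh2 and Figla. They were chosen by name, with earlier results of these data known, and their members on the array are every probe set that carries one of these symbols and no other. This gave 11 probe sets for 10 genes, of 45101 probe sets on the array and 18193 genes with a probe set of their own. Dazl has 2 probe sets and each of the other genes has 1.

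The series holds 8 Affymetrix arrays of cultured mouse cells, made for work on heart repair with parthenogenetic stem cells. The 2 EB_PSC arrays are embryoid bodies, aggregates of differentiating cells, made from C57BL/6 parthenogenetic stem cells and kept in culture for 15 days. The 3 PSC arrays are the undifferentiated C57BL/6 parthenogenetic stem cells themselves, whose genome comes from the mother alone: oocytes of superovulated mice were activated with strontium chloride, and the cells were isolated from day 6 blastocysts. The 3 ESC arrays come from the embryonic stem cell line R1, whose cells carry a genome from both parents and were grown on mouse embryonic fibroblast (MEF) feeder cells with leukemia inhibitory factor (LIF). The labels give neither the passage nor the number of PSC lines, nor whether replicate arrays had cultures of their own, so a p-value speaks for the spread among these arrays, which may be technical. Parental origin, strain, sex, line and culture differ together between PSC and ESC and cannot be told apart. Embryoid bodies of ESC were not analysed here.

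Germ cells carry the genome to the next generation and keep retrotransposons silent. In the piRNA pathway, PIWI proteins loaded with small RNAs find transposon transcripts, cut them and direct DNA methylation to their promoters, and helicases and Tudor domain proteins hold this machinery in granules called nuage. Many germline genes are kept off in somatic cells by promoter DNA methylation and by repressor complexes that hold E2F6, PCGF6, MGA and MAX. Mouse embryonic stem cells in culture are known to transcribe several of these genes although they are not germ cells.

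Promoter sequence was read from RefSeq (build GRCm38.p6), in windows that run from 250 bases before to 50 bases after each transcript start. All 10 genes matched, with 12 windows, 3 of them for Tdrd1. Each window was searched for CACGTG, the E-box letters known to be read by MAX and its partners, and for GCGGGA or its reverse complement TCCCGC, letters found in E2F sites. CACGTG is its own reverse complement, so both strands were covered, and within a window no match overlapped another. CACGTG was found in windows of 4 of the 10 genes: Mael, Ddx4, Tdrd1 and, 2 times, Sycp3. The first and second windows of Tdrd1 overlap and hold the same single match. In the table, 7.15% of the 32851 windows held this motif. GCGGGA or TCCCGC was found in the windows of Mael, Ddx4, Sycp3 and Tex19.1, against 20% of all windows. Both motifs stood together in the windows of Mael, Ddx4 and Sycp3, against 1.99% of all windows. Counted by windows, as the shares are, the matches were in 5, 4 and 3 of the 12 windows in the same order. These are letter matches in a fixed window and no measurement of binding or methylation. Each motif holds the letters CG. Apart from the third of Tdrd1, the windows of the 10 genes hold more CG pairs than the median window. Shares among windows of like CG count were not computed. The 250 bases before the start of the 3 genes that hold both motifs are given 5′ to 3′ in the gene's direction, with the matches in capitals, because these genes also include the 2 with the largest differences between PSC and ESC. The Mael window is chr1:166238745-166238994 on the minus strand, the Ddx4 window chr13:112652311-112652560 on the minus strand, and the Sycp3 window chr10:88459337-88459586 on the plus strand.
Mael: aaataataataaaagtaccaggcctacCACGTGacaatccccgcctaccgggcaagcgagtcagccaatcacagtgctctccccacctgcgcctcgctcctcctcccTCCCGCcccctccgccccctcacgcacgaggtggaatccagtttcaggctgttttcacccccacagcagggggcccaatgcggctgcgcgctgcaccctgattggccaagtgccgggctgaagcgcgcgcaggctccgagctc
Ddx4: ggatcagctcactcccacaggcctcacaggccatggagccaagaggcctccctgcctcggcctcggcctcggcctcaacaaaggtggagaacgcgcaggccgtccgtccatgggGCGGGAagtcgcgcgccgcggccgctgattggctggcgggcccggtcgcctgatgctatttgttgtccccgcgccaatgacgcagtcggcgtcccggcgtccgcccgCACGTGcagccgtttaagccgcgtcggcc
Sycp3: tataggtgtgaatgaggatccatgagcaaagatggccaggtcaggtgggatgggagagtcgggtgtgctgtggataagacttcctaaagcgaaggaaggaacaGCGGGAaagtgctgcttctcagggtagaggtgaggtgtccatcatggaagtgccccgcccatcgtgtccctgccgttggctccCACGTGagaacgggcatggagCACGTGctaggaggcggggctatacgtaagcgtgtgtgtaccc

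The second GCGGGA of Mael lies 12 bases after the start, outside the printed stretch. CpG pairs, the sites of DNA methylation, numbered 38 in the Ddx4 window, 28 in that of Dazl, 24 in that of Mael, 20 in that of Prdm1, 17 in that of Sohlh2, 16 in those of Tex19.1 and Figla, 15 in that of Sycp3 and 10 in that of Stra8. The 3 Tdrd1 windows held 20, 25 and 3 pairs. The median over all windows in the table was 7, with quartiles of 3 and 20. The windows of the 10 genes thus lay above the median, apart from the third window of Tdrd1.

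**Figure D1:**
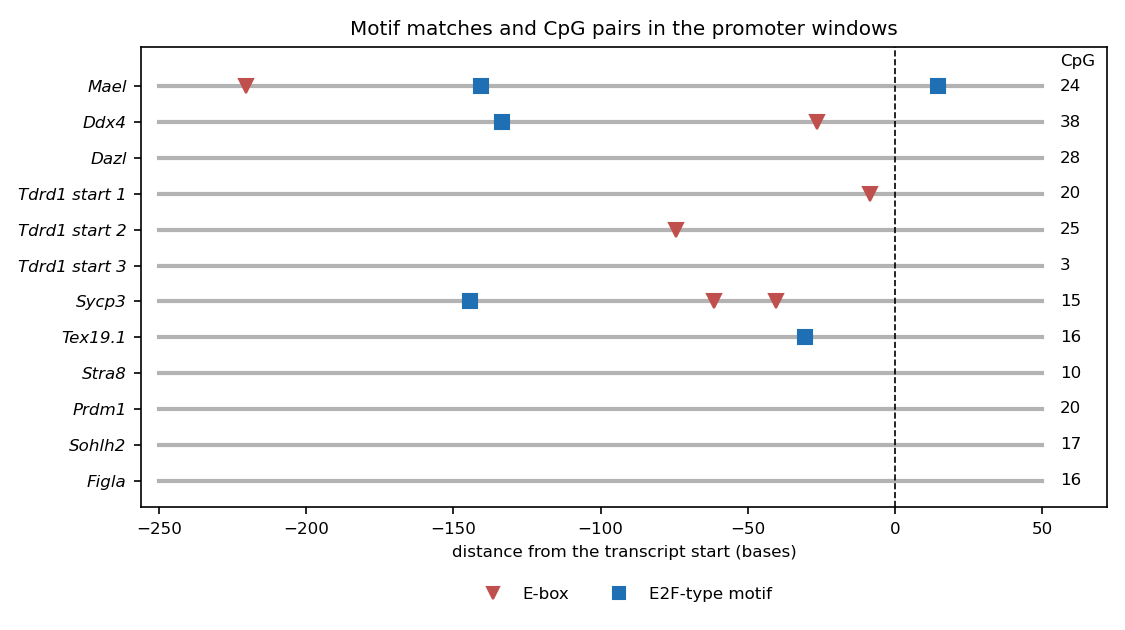
Motif matches in the 12 promoter windows of the 10 genes, drawn by distance in bases from the transcript start (dashed line), with the number of CpG pairs at the right. Triangles mark the E-box and squares the E2F-type motif, and the windows of Mael, Ddx4 and Sycp3 are the ones that hold both.

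All values below are log2 signals of 1 probe set as the authors deposited them. The signals of different probe sets have different efficiencies, so a level is set only against the same probe set on other arrays. Probe sets with a group mean under 5.46, the median of all probe set means, were treated as dim, and no fold is given for them. Pearson's r between arrays over all probe sets was 0.994 to 0.995 within PSC, 0.992 between the EB_PSC arrays and 0.991 to 0.995 within ESC. The mean log2 signal of 8 pluripotency markers was 9.19 to 9.32 on the EB_PSC arrays, 11.40 to 11.57 on the PSC arrays and 11.82 to 12.05 on the ESC arrays.

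Between the undifferentiated lines, 4 of the 10 genes were higher in PSC than in ESC and 2 were lower at an adjusted p under 0.05 (limma, Benjamini-Hochberg over all probe sets). The higher ones were Mael, Ddx4, Stra8 and Sohlh2, and the lower ones Sycp3 and Prdm1. Of all 18193 genes, 18.8% passed this test, 8.21% higher and 10.5% lower. The 10 genes were chosen with earlier results of these data known, so setting them beside shares of all genes is descriptive only. The count of 6 fell to 2 without PSC 1 or without ESC 3 and to 3 without PSC 2 or without ESC 1, and Mael and Sycp3 passed in each of these fits. The median difference of the 10 genes, PSC minus ESC, was 0.22, against 0.0064 over all genes. The arrays of the compared groups did not overlap for 7 of the 10 genes, against 36.5% of all genes. In the embryoid bodies, 6 of the 10 genes were lower than in PSC and 0 were higher: Mael, Ddx4, Tex19.1, Stra8, Sohlh2 and Figla. There the background was wide, since 41.8% of all genes passed, 18.1% higher and 23.7% lower. Arrays did not overlap for 8 of the 10 genes, against 62.8% of all genes. The 4 genes that did not pass that comparison were Dazl, Tdrd1, Sycp3 and Prdm1. Against ESC, 7 of the 10 genes were lower in the embryoid bodies and 0 were higher, with 43.1% of all genes passing, 18.6% higher and 24.5% lower, and arrays did not overlap for 9 of the 10 genes, against 61.1% of all genes. The 3 comparisons share arrays, so their calls are not independent of each other.

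**Figure D2:**
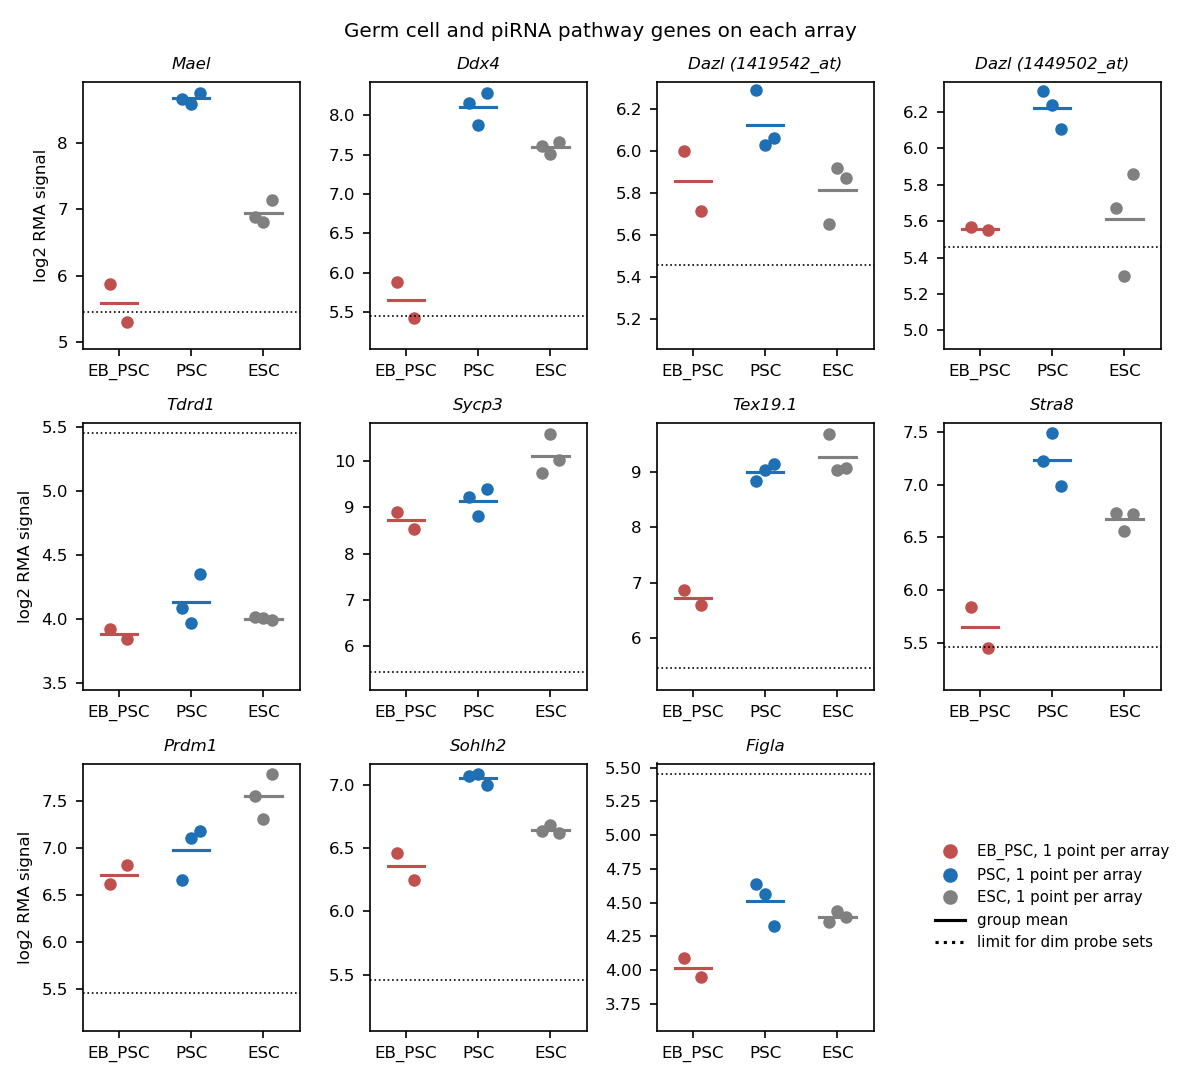
Deposited log2 signal of the 11 probe sets on every array, 1 point per array, with EB_PSC, PSC and ESC from left to right, the group mean as a line and the limit for dim probe sets dotted. Mael is highest on the 3 PSC arrays (8.59 to 8.75), and Tdrd1 and Figla stay under the limit on all 8 arrays.

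The piRNA pathway genes among the 10 are Mael, Ddx4 and Tdrd1. Mael encodes maelstrom, a nuage protein needed to silence transposons in the mouse germline, and it differed most between the lines. Its signal was 5.88 and 5.30 on the EB_PSC arrays, 8.66, 8.59 and 8.75 on the PSC arrays and 6.88, 6.81 and 7.15 on the ESC arrays. All 3 PSC arrays lay above all other arrays, and both EB_PSC arrays lay below all others. Mael was 3.30-fold higher in PSC than in ESC (difference 1.72 ± 0.15, SE, adjusted p = 1.75e-05) and 8.45-fold lower in embryoid bodies than in PSC (difference -3.08 ± 0.17, adjusted p = 3.16e-08). It was also lower in embryoid bodies than in ESC (difference -1.36 ± 0.17, adjusted p = 4e-05). The second EB_PSC array lay under the limit for dim probe sets for Mael, Ddx4 and Stra8, so that the falls of these 3 genes in embryoid bodies may be larger than measured.

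Ddx4 encodes the mouse vasa homologue, a DEAD-box RNA helicase of nuage and a standard germ cell marker. It had signals of 5.88 and 5.43 in EB_PSC, 8.16, 7.87 and 8.29 in PSC and 7.61, 7.51 and 7.66 in ESC. The PSC arrays did not overlap the ESC arrays, but the gap between the closest ones was small beside that of Mael. Its difference was 0.51 ± 0.15 for PSC minus ESC (adjusted p = 0.0316, 1.43-fold) and -2.45 ± 0.16 for EB_PSC minus PSC (adjusted p = 1.66e-07, 5.47-fold lower). Embryoid bodies were also 3.83-fold lower than ESC (difference -1.94 ± 0.16, adjusted p = 1.21e-06). The call between PSC and ESC did not hold without PSC 1, PSC 3, ESC 1, ESC 2 or ESC 3, each left out alone (adjusted p = 0.0651 to 0.117, difference 0.42 to 0.55).

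Tdrd1, a Tudor domain protein that binds methylated arginines of PIWI proteins, was dim throughout. Its signal was 3.92 and 3.85 in EB_PSC, 4.08, 3.97 and 4.35 in PSC and 4.02, 4.01 and 3.99 in ESC, with overlap of PSC and ESC. The 95% interval of the difference, PSC minus ESC, was -0.13 to 0.39 (adjusted p = 0.556), and that of EB_PSC minus PSC was -0.55 to 0.04 (adjusted p = 0.181). At such a signal a low level of transcript could not be told from background.

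Dazl encodes an RNA-binding protein that controls translation in germ cells, and its 2 probe sets gave different calls. Probe set 1419542_at, by which the gene was counted, read 6.00 and 5.71 in EB_PSC, 6.29, 6.03 and 6.06 in PSC and 5.65, 5.92 and 5.87 in ESC. For it, PSC minus ESC was 0.31 ± 0.13 (adjusted p = 0.137) and EB_PSC minus PSC was -0.27 ± 0.15 (adjusted p = 0.183). Probe set 1449502_at read 5.57 and 5.55 in EB_PSC, 6.31, 6.24 and 6.11 in PSC and 5.67, 5.30 and 5.86 in ESC. On this one the PSC arrays lay above all others, with differences of 0.61 ± 0.14 against ESC (adjusted p = 0.0117) and, for EB_PSC minus PSC, of -0.66 ± 0.16 (adjusted p = 0.00577). The mean of both probe sets passed too, at 0.46 for PSC minus ESC (adjusted p = 0.00922) and -0.47 for EB_PSC minus PSC (adjusted p = 0.00636). Both probe sets thus differed in the same direction in these comparisons, while embryoid bodies and ESC were close (0.044 and -0.051 for EB_PSC minus ESC, adjusted p = 0.867 and 0.858).

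Of the 2 meiotic genes, Sycp3 encodes a protein of the chromosome axis in the synaptonemal complex, which joins homologous chromosomes. Between PSC and ESC it ran against Mael and Ddx4. Its signals were 8.90 and 8.54 in EB_PSC, 9.22, 8.82 and 9.39 in PSC and 9.75, 10.58 and 10.03 in ESC. All ESC arrays lay above all PSC and EB_PSC arrays, and PSC and EB_PSC overlapped. Sycp3 was 1.96-fold lower in PSC than in ESC (difference -0.97 ± 0.21, adjusted p = 0.00685), and this call held under the 18 alternatives that kept the threshold, at adjusted p values up to 0.0413, though the difference is just short of 1 log2 unit. In embryoid bodies it was 2.64-fold lower than in ESC (difference -1.40 ± 0.23, adjusted p = 0.000355). The difference EB_PSC minus PSC was -0.42 ± 0.23 (adjusted p = 0.189).

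Stra8, a retinoic acid-induced gene needed to enter meiosis, sided with Mael. Signals were 5.84 and 5.45 in EB_PSC, 7.23, 7.49 and 6.99 in PSC and 6.74, 6.56 and 6.72 in ESC, with no overlap between any of the groups. In embryoid bodies it was 3.01-fold lower than in PSC (difference -1.59 ± 0.17, adjusted p = 9.89e-06) and 2.04-fold lower than in ESC (difference -1.03 ± 0.17, adjusted p = 0.000303). It was 1.48-fold higher in PSC than in ESC (difference 0.56 ± 0.15, adjusted p = 0.0226), a call lost without PSC 1, PSC 2, ESC 2 or ESC 3 (adjusted p = 0.055 to 0.106, difference 0.44 to 0.59).

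Tex19.1 encodes a mammalian protein that restrains retrotransposons in germ cells and placenta and is known to be transcribed in pluripotent cells. Its signal was 6.86 and 6.59 in EB_PSC, 8.84, 9.04 and 9.14 in PSC and 9.68, 9.04 and 9.08 in ESC. The PSC and ESC arrays overlapped, and both EB_PSC arrays lay far below them. Embryoid bodies were 4.86-fold lower than PSC (difference -2.28 ± 0.19, adjusted p = 1.35e-06) and 5.83-fold lower than ESC (difference -2.54 ± 0.19, adjusted p = 4.45e-07). PSC minus ESC was -0.26 ± 0.17, with a 95% interval of -0.63 to 0.11 (adjusted p = 0.372).

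The transcription factors Prdm1, Sohlh2 and Figla act at the start of the germline and in the gonads. Prdm1, known as BLIMP1, specifies primordial germ cells and also acts in plasma cells, visceral endoderm and epithelia. It read 6.62 and 6.81 in EB_PSC, 6.65, 7.11 and 7.18 in PSC and 7.55, 7.30 and 7.78 in ESC, so ESC lay above both other groups. Its difference was -0.57 ± 0.16 for PSC minus ESC (adjusted p = 0.0323, 1.48-fold lower) and -0.83 ± 0.18 for EB_PSC minus ESC (adjusted p = 0.00273, 1.78-fold lower). EB_PSC minus PSC was -0.26 ± 0.18 (adjusted p = 0.303). The call of PSC against ESC was lost without PSC 1, PSC 2, ESC 1 or ESC 3 (adjusted p = 0.0592 to 0.145, difference -0.63 to -0.40).

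Sohlh2 is a basic helix-loop-helix factor of spermatogonia and early oocytes. It read 6.46 and 6.25 in EB_PSC, 7.07, 7.09 and 7.00 in PSC and 6.63, 6.68 and 6.62 in ESC. The 3 groups did not overlap, and the PSC and ESC arrays were each close together. Embryoid bodies were 1.62-fold lower than PSC (difference -0.70 ± 0.12, adjusted p = 0.000598), and PSC were 1.33-fold higher than ESC (difference 0.41 ± 0.11, adjusted p = 0.0223). The second of these calls was lost without PSC 1, PSC 2, ESC 1 or ESC 3 (adjusted p = 0.0599 to 0.0761, difference 0.39 to 0.40). EB_PSC minus ESC was -0.29 ± 0.12 (adjusted p = 0.0873).

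Figla, a helix-loop-helix factor that drives the zona pellucida genes of the oocyte, was dim on all 8 arrays. It read 4.09 and 3.95 in EB_PSC, 4.64, 4.57 and 4.33 in PSC and 4.36, 4.44 and 4.39 in ESC, and the PSC and ESC arrays overlapped. PSC minus ESC was 0.11, with a 95% interval of -0.14 to 0.37 (adjusted p = 0.605). EB_PSC minus PSC was -0.49 ± 0.13 (adjusted p = 0.0108), lost without EB_PSC 2 (adjusted p = 0.086, difference -0.42). EB_PSC minus ESC was -0.38 ± 0.13 (adjusted p = 0.0396), lost without PSC 2 or any 1 of the EB_PSC or ESC arrays (adjusted p = 0.0505 to 0.207, difference -0.45 to -0.31).

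**Figure D3:**
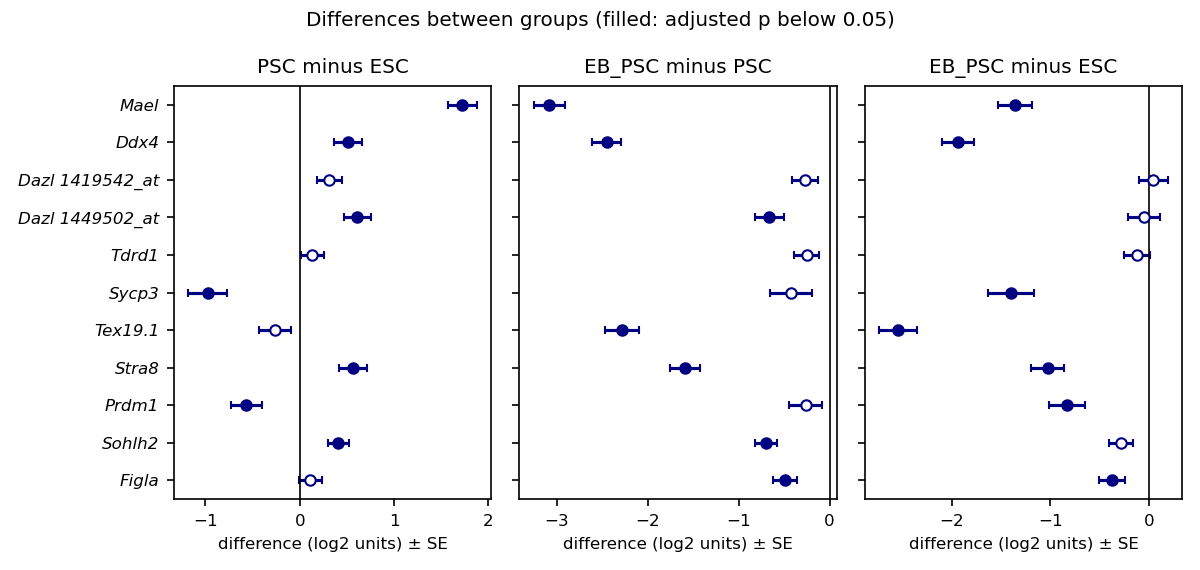
Difference of each probe set in log2 units with its SE, for PSC minus ESC, EB_PSC minus PSC and EB_PSC minus ESC, with filled points at an adjusted p under 0.05. Mael has the largest difference in the first comparison (1.72) and in the second (-3.08), and Tex19.1 in the third (-2.54).

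Among the 20 measured of 24 other piRNA pathway genes, 4 were higher and 3 lower in PSC than in ESC and 13 did not pass, with a median difference of 0.13 against 0.0064 over all genes. Of all genes, 8.21% were higher and 10.5% lower. Gtsf1, which licenses PIWI cleavage, was lower (-1.02 ± 0.16, adjusted p = 0.00125), and by -0.46 on its probe set that is not prone to cross-hybridisation. Tdrkh, a Tudor protein of piRNA trimming, was higher (0.88 ± 0.12, adjusted p = 0.000327), and so was Pld6, the mitochondrial nuclease of piRNA processing (0.70 ± 0.13, adjusted p = 0.00245). Wdr77, the partner of the arginine methyltransferase PRMT5, was lower (-0.76 ± 0.16, adjusted p = 0.00632). The PIWI gene Piwil2 was higher (0.65 ± 0.13, adjusted p = 0.00502), at 7.36, 7.22 and 7.35 in PSC and 6.57, 6.48 and 6.92 in ESC without overlap. Piwil4, the nuclear PIWI gene, was dim, with a mean of 3.64 ± 0.16 over the PSC arrays and of 3.75 ± 0.05 over the ESC arrays (SD, n = 3 in both). Mov10l1, the helicase that hands transcripts to piRNA processing, differed by 0.18 (adjusted p = 0.363).

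In embryoid bodies, 9 of these 20 piRNA genes were lower than in PSC, 1 was higher and 10 did not pass, with a median difference of -0.43 against -0.095 over all genes. Of all genes, 23.7% were lower there and 18.1% higher. Piwil2 fell to 4.72 and 4.86, below the limit for dim probe sets, a difference of -2.52 ± 0.15 from PSC (adjusted p = 5.01e-08). Tdrd12, a Tudor domain helicase, and Pnldc1, the exonuclease that trims piRNAs, were lower by -2.22 ± 0.16 and -2.15 ± 0.15 (adjusted p = 3.3e-07 and 2.56e-07). Mov10l1 differed by -0.67 ± 0.13 (adjusted p = 0.00122), and was dim on both EB_PSC arrays (5.39 and 5.23). The 1 gene that rose was Tdrd7, a Tudor gene that is also expressed in the lens of the eye (2.96 ± 0.13, adjusted p = 4.01e-09), and by 1.68 as the mean of its probe sets. Piwil4 differed by 0.30 ± 0.18 (adjusted p = 0.219), and passed without EB_PSC 2 (0.63, adjusted p = 0.0152).

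Of 22 measured genes of meiotic chromosome structure and recombination, from a list of 24, 6 were higher and 2 lower in PSC than in ESC, and 14 did not pass (median difference 0.12). The shares of all genes were 8.21% higher and 10.5% lower. Dmc1, the meiotic recombinase, had the largest difference of the list. It read 7.58, 7.88 and 8.09 in PSC against 5.93, 6.06 and 5.79 in ESC, a difference of 1.92 ± 0.17 (adjusted p = 1.41e-05), or of 1.25 as the mean of its probe sets. Meioc, which holds germ cells in the meiotic programme, read 7.54, 7.22 and 7.74 in PSC against 6.24, 6.10 and 6.11 in ESC (1.35 ± 0.20, adjusted p = 0.000695). Smc1b, a meiotic cohesin subunit, was higher too (0.93 ± 0.11, adjusted p = 0.00013), and so was the dim Sycp1, which forms the central bridge of the synaptonemal complex (0.71 ± 0.11, adjusted p = 0.00102). Stag3, another meiotic cohesin subunit, was lower in PSC (-0.98 ± 0.13, adjusted p = 0.000384), as Sycp3 was. In embryoid bodies 12 of the 22 were lower than in PSC and 0 were higher (median difference -0.66), against 23.7% and 18.1% of all genes. They were led by Stag3 (-2.89 ± 0.15, adjusted p = 1.47e-08), Meioc (-2.81 ± 0.22, adjusted p = 8.78e-07), Dmc1 (-2.42 ± 0.19, adjusted p = 6.02e-07) and Syce1, of the central element (-1.86 ± 0.19, adjusted p = 7.73e-06). Stag3, Meioc and Syce1 lay under the limit for dim probe sets on both EB_PSC arrays, and Dmc1 on the second (5.15). The falls of these genes may thus be larger than measured, and their order by size is uncertain. Sycp1 was lower by -0.70 ± 0.12 (adjusted p = 0.00074).

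**Figure D4:**
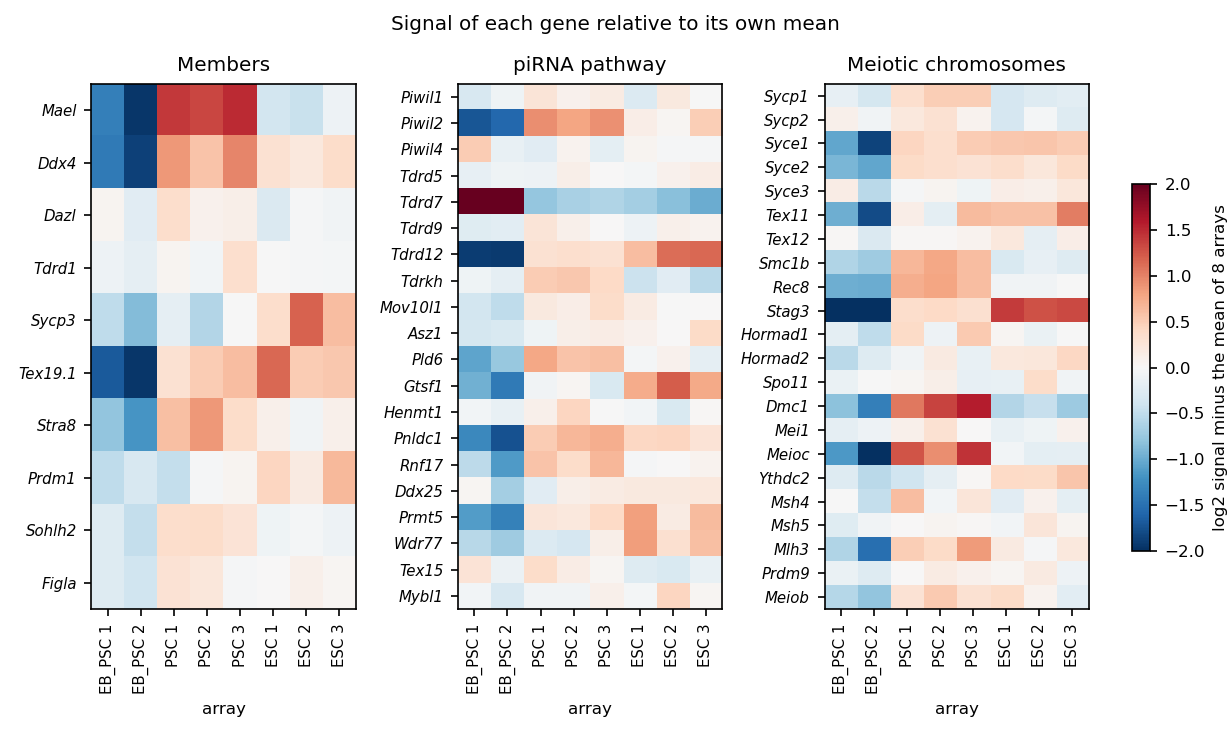
Log2 signal of each gene minus its own mean over the 8 arrays, for the 10 genes, the other piRNA pathway genes and the meiotic chromosome genes, with EB_PSC, PSC and ESC arrays from left to right. Mael, Dmc1 and Meioc are highest on the PSC arrays, Sycp3 and Stag3 on the ESC arrays, and Tdrd7 on the EB_PSC arrays.

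Of 15 measured genes of primordial germ cell specification, from a list of 16, 2 were higher and 1 lower in PSC than in ESC (median difference -0.063). That count is near the 18.8% of all genes that passed, 8.21% higher and 10.5% lower. The higher ones of the list were Dppa3, a maternal factor that guards DNA methylation in the zygote (1.25 ± 0.19, adjusted p = 0.000887), and Ifitm3, a membrane protein gene used as an early germ cell marker (1.02 ± 0.14, adjusted p = 0.000335). Elavl2, an RNA-binding protein gene, was lower (-0.90 ± 0.13, adjusted p = 0.000755), and by -0.37 as the mean of its probe sets. Of the other early factors, Prdm14 differed by -0.19 (adjusted p = 0.477) and Tfap2c by 0.67 (adjusted p = 0.0523). Tfap2c passed in 12 of 18 alternatives, and its difference ranged over all 18 between 0.051 and 0.85. In embryoid bodies 14 of the 15 were lower than in PSC and 1, Tdrd7, was higher (median difference -1.22), against 23.7% and 18.1% of all genes. Tfap2c fell most (-2.37 ± 0.24, adjusted p = 6.79e-06), before Nanog (-1.92 ± 0.13, adjusted p = 1.51e-07) and Prdm14 (-1.82 ± 0.17, adjusted p = 4.06e-06), all of which are also genes of pluripotent cells. Dppa3 was lower by -0.80 ± 0.21 (adjusted p = 0.011), lost after cyclic loess (adjusted p = 0.0528) and without EB_PSC 1 (-0.44, adjusted p = 0.18).

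Genes of later germ cells were covered by a list for the oocyte and one for the testis. Of 17 measured oocyte genes, from a list of 18, 3 were higher in PSC than in ESC and 0 lower (median difference 0.0084), against 8.21% higher and 10.5% lower of all genes: Padi6 (1.24 ± 0.17, adjusted p = 0.000356) and Ooep (0.68 ± 0.11, adjusted p = 0.00149), both of the maternal complex of the oocyte, and Tcl1 (0.47 ± 0.13, adjusted p = 0.0258). The call of Tcl1 was lost without PSC 2, PSC 3 or ESC 2 (adjusted p = 0.0741 to 0.0919, difference 0.36 to 0.44). In embryoid bodies 4 were lower than in PSC and 0 higher, namely Tcl1 (-2.79 ± 0.14), Zp3 of the zona pellucida (-1.58 ± 0.14), Ooep (-1.49 ± 0.13) and Padi6 (-1.29 ± 0.19), while 13 did not pass. Those 4 of 17 are near the 23.7% of all genes that were lower. Zp3 was dim on both EB_PSC arrays (5.10 and 5.21). Padi6 was dim on EB_PSC 1 (4.99) but not on EB_PSC 2 (5.52), and its mean in ESC was dim too (5.30). Of 19 spermatogonial and spermatid genes, 1 was higher and 1 lower in PSC than in ESC, and 1 was higher and 4 lower in embryoid bodies than in PSC. Both counts lie below the share of all genes that passed, 18.8% and 41.8%. Ldhc, a testis lactate dehydrogenase, was lower in PSC (-0.49 ± 0.12, adjusted p = 0.0136), lost without PSC 2 or ESC 3 (adjusted p = 0.0578 and 0.066) and -0.97 as the mean of its probe sets. Crem, a cAMP-responsive factor of spermatids, was higher (0.43 ± 0.13, adjusted p = 0.0455), and 11 of 18 alternatives lost that call, among them the fits without any 1 array other than PSC 3 and ESC 2 (adjusted p = 0.0552 to 0.171). The largest falls in embryoid bodies were those of Tex14, of the bridges between germ cells (-2.80 ± 0.15, adjusted p = 2.09e-08), and Dmrt1, a sex determination factor of the testis (-1.57 ± 0.14, adjusted p = 1.73e-06). Ldhc was lower there as well (-0.75 ± 0.13, or -0.47 as the mean of its probe sets), and dim on both EB_PSC arrays (4.85 and 4.84). Crem was the gene that rose (0.66 ± 0.15, adjusted p = 0.0035, or 0.37 as the mean of its probe sets).

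A further list held 9 genes linked to Tex19.1 or to retrotransposons, and not all of them are silencing genes. Of the 9, 4 were lower in PSC than in ESC and 0 higher (median difference -0.30), against 10.5% and 8.21% of all genes. They were Morc1, a transposon repressor of the male germline (-1.42 ± 0.13, adjusted p = 2.27e-05), the chromatin factor gene Dppa2 (-0.83 ± 0.12, adjusted p = 0.000457), the zinc finger gene Zfp809 that silences retroviruses in stem cells (-0.73 ± 0.14, adjusted p = 0.00344) and L1td1, itself derived from a LINE element (-0.61 ± 0.12, adjusted p = 0.00558). In embryoid bodies 8 of the 9 were lower than in PSC (median difference -0.87), against 23.7% of all genes. Trim28, the corepressor of zinc finger proteins, was at -1.83 ± 0.17, L1td1 at -1.30 ± 0.14, Dppa4 at -1.29 ± 0.13 and Morc1 at -0.89 ± 0.15. The 1 that rose was Zfp809 (0.57 ± 0.15, adjusted p = 0.0118), named after its value was seen. This rise was not followed over the alternatives.

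The list of known repressors of germline genes had 19 measured of 20 genes. In PSC 3 were lower than in ESC and 0 higher (median difference -0.19), near the 18.8% of all genes that passed, 10.5% lower and 8.21% higher. The 3 were the histone H3K9 methyltransferase gene Ehmt2 (-1.17 ± 0.16, adjusted p = 0.000415), L3mbtl2 of the E2F6 complex (-0.51 ± 0.15, adjusted p = 0.0339) and the E2F partner Tfdp1 (-0.47 ± 0.12, adjusted p = 0.0204). The call of L3mbtl2 was lost after quantile normalization, after cyclic loess and without PSC 1, PSC 2, PSC 3 or ESC 1 (adjusted p = 0.0606 to 0.121), and that of Tfdp1 without PSC 2, ESC 1 or ESC 3 (adjusted p = 0.0746 to 0.0878). E2f6 differed by -0.21 (adjusted p = 0.326), Pcgf6 by 0.065 (adjusted p = 0.76), Mga by -0.39 (adjusted p = 0.118), Dnmt3a by 0.014 (adjusted p = 0.97) and Dnmt3b by -0.11 (adjusted p = 0.592). Mga passed with the replicate number as a block (adjusted p = 0.0497) and with array weights (adjusted p = 0.0369), and the mean of its probe sets was 0.082. In embryoid bodies 11 of the 19 were lower than in PSC, 3 higher and 5 did not pass (median difference -0.47). Of all genes, 23.7% were lower and 18.1% higher there. The genes that rose were Yaf2 of a Polycomb complex (2.78 ± 0.13, adjusted p = 7.96e-09), E2f6 (0.73 ± 0.14, adjusted p = 0.00115, or 0.47 as the mean of its probe sets) and Rnf2, named after its value was seen (0.34 ± 0.12, adjusted p = 0.0492). The call of Rnf2 lay just under the threshold and was not followed over the alternatives. The largest falls were those of Dnmt3l, a cofactor of DNA methylation in germ cells (-2.06 ± 0.18, adjusted p = 1.61e-06), Uhrf1, which maintains DNA methylation (-2.02 ± 0.16, adjusted p = 7.56e-07), and L3mbtl2 (-1.46 ± 0.16, adjusted p = 1.85e-05). Pcgf6 was lower by -0.90 ± 0.12 (adjusted p = 6.5e-05). Mga was lower by -0.76 ± 0.17 (adjusted p = 0.00368), lost without EB_PSC 2 (-0.59, adjusted p = 0.0565). Dnmt3a differed by 0.0091 (adjusted p = 0.976) and Dnmt3b by 0.26 (adjusted p = 0.151). Dnmt3b passed after cyclic loess (0.39, adjusted p = 0.0286), and the mean of its probe sets had the opposite sign (-0.22).

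**Figure D5:**
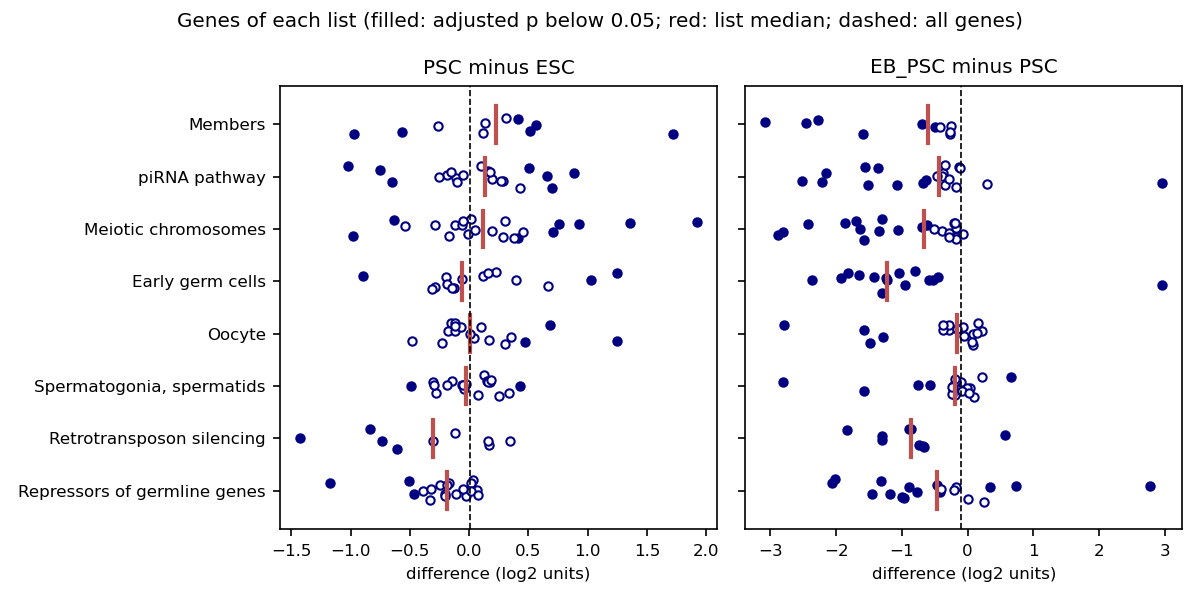
Difference of each gene in log2 units for the 10 genes and the 7 other lists, PSC minus ESC at the left and EB_PSC minus PSC at the right, with filled points at an adjusted p under 0.05, the list median in red and the median of all genes dashed. In PSC minus ESC the list medians lie between -0.30 and 0.22, and in EB_PSC minus PSC between -1.22 and -0.15.

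The arrays measure RNA of whole cultures, so fewer cells of a type and less RNA per cell cannot be told apart. Of 11 germ cell markers, among them Mael, Ddx4 and Dazl, 9 were measured. Their mean signal was 5.41 to 5.50 on the EB_PSC arrays, 6.68 to 6.84 on the PSC arrays and 6.30 to 6.44 on the ESC arrays. Mael, Ddx4 and Dazl enter this mean, so it is no measure apart from the 10 genes. Of the 9 markers, 3 were higher in PSC than in ESC (Mael, Ddx4 and Piwil2) and 0 lower, against 8.21% and 10.5% of all genes. The other 6 did not pass, so that outside the 10 genes only Piwil2 passed. The spermatid gene Tnp1 was under the limit for dim probe sets on every array. Prm1, also of spermatids, read 7.02 to 7.39. Both were read on probe sets prone to cross-hybridisation, so the signal of Prm1 may not come from Prm1 alone. Gonadal support cell markers, such as those of Sertoli and granulosa cells, gave means of 5.65 to 5.70 in EB_PSC, 5.26 to 5.38 in PSC and 5.32 to 5.37 in ESC, and 0 of 9 passed between PSC and ESC. In embryoid bodies 2 of these 9 were higher than in PSC and 0 lower, against 18.1% and 23.7% of all genes, and 7 did not pass. Sox9 read 7.06 and 6.37 in EB_PSC against 5.07 to 5.43 in PSC. Gata4 read 6.38 and 6.19 in EB_PSC against 4.80 to 5.06 in PSC.

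Fibroblast markers moved with the comparison of the lines. Their mean was 8.98 to 9.54 in EB_PSC, 5.75 to 5.97 in PSC and 6.70 to 7.06 in ESC. Of the 9 markers, 7 were lower in PSC than in ESC and 0 higher, against 10.5% and 8.21% of all genes. The labels name feeder cells for ESC only. The part of the fibroblast signal in the differences of the 10 genes was not tested. In embryoid bodies the same list had 7 of 9 higher than in PSC and 1 lower, against 18.1% and 23.7% of all genes. Cardiomyocyte markers reached 8.98 to 9.77 there, against 4.80 to 4.91 in PSC. All 8 pluripotency markers were lower in embryoid bodies than in PSC, against 23.7% of all genes. Visceral endoderm markers, which bear on Prdm1, had means of 7.77 to 7.87 in EB_PSC, 5.31 to 5.44 in PSC and 5.20 to 5.29 in ESC, and plasma cell and lymphoid markers 6.37 to 6.69, 6.20 to 6.22 and 5.96 to 6.11 in the same order of groups. The part of these lists in the Prdm1 signal was not tested. As a measure of RNA integrity, the 3′ control signal of Gapdh minus its 5′ signal was -0.094 to -0.063 in EB_PSC, -0.064 to 0.0023 in PSC and 0.085 to 0.17 in ESC. The same measure for Actb ran the other way between the lines and overlapped, at 1.09 to 1.17 in EB_PSC, 1.04 to 1.54 in PSC and 0.69 to 1.13 in ESC.

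For the 5 genes whose group means spanned over 1 log2 unit, the genes with the most similar profile were found by the root mean square distance between 8-array profiles, each centred on its own mean. This describes the 8 arrays of 3 groups and carries no test. Mael (span 3.08) was closest to Meioc (distance 0.229), then Nmnat2 (0.310) and Fam228b (0.312). Meioc, the nearest of all genes, is the meiotic gene described above. Ddx4 (span 2.45) was closest to Chchd10 (0.156), Iqcg (0.161) and Tbx3 (0.167). Tex19.1 (span 2.54) lay closer to its neighbours than the others did, with Utf1, a pluripotency factor, at 0.0844, Pml at 0.101 and Pold2 at 0.115. Stra8 (span 1.59) was closest to Usp28 (0.0958), Prc1 (0.103) and Ttyh2 (0.122), and Sycp3 (span 1.40) to Zfp982 (0.214), Tipin (0.225) and Cenps (0.234).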

How the data were processed

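The authors deposited log2 expression values of 8 one-colour Affymetrix arrays; the values are RMA values, per the submitters' processing notes, whose version is not given in the sources used here. RMA corrects the background, applies quantile normalization and summarises the probes of a probe set, so small differences between dim probe sets are compressed. Gene symbols came from the platform annotation: 34945 probe sets had 1 symbol, 932 had several and 9160 had none. The 64 control probe sets were left out. A linear model with group as its only term was fitted to all 8 arrays and 45037 probe sets with limma 3.58.1 in R 4.3.3 (residual df 5), with moderated variances, the Benjamini-Hochberg adjustment ran over all probe sets, and a call was an adjusted p under 0.05. Each gene was counted by its probe set of highest mean over the arrays, and the number of arrays limits the precision. Of each list, up to 4 called genes by size were named, together with 13 genes chosen by name. The 10 genes and all lists were chosen with earlier results of these data known. Nanos3 was not analysed here. Promoter windows came from RefSeq (GRCm38.p6) and were searched with Python 3.11.15. The fit was tested on simulated data. No 2 arrays held identical values. Alternatives covered normalization, a filter on dim probe sets, 1 probe set per gene, the mean of probe sets, cross-hybridising probe sets, arrays in the fit, variance prior, array weights, replicate number, threshold and each array left out.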

Additional observations from a re-analysis of the deposited data

How the results depend on the processing

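Of the 6 calls among the 10 genes for PSC against ESC, those of Mael and Sycp3 held in all 18 alternatives that kept the threshold. Leaving out 1 array at a time gave 2 to 6 calls, 1 to 4 of them higher and 1 to 2 lower, and the counts were 5 to 6 for EB_PSC against PSC and 6 to 7 for EB_PSC against ESC. Asking also for a difference of at least 1 log2 unit left 1 gene (1 higher and 0 lower), 4 and 5 genes in the same order, and 550, 2906 and 3282 of the 3412, 7597 and 7846 genes called in all. The count of all genes for PSC against ESC was 2137 without PSC 1 and 3704 without ESC 2. Counts of the other lists for PSC against ESC also moved. With the size threshold the piRNA list had 1 call in place of 7 and the meiotic list 2 in place of 8. The oocyte list had 1 in place of 3 and the retrotransposon list 1 in place of 4. Over all alternatives the early germ cell list had 2 to 6 calls in place of 3, the spermatogonial and spermatid list 0 to 4 in place of 2 and the repressor list 1 to 5 in place of 3. For EB_PSC against PSC the size threshold left 2 of 5, 3 of 9 and 6 of 14 calls in the spermatogonial, retrotransposon and repressor lists. With the replicate number as a block, the counts were 6, 6 and 7 as without it. Same-numbered PSC and ESC arrays deviated with r of -0.26, -0.040 and -0.030, EB_PSC and PSC arrays with r of -0.14 and 0.047, and EB_PSC and ESC arrays with r of 0.16 and 0.20, so the numbers were not taken to pair the arrays. Dim probe sets limit what can be said of Tdrd1 and Figla.

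Another scaling moved the split of all calls: for PSC against ESC 1494 higher and 1918 lower as deposited, 1825 and 1657 after quantile normalization and 1782 and 1675 after cyclic loess. For EB_PSC against PSC the split was 3284 and 4313 as deposited, 3353 and 4533 after quantile normalization and 4014 and 3341 after cyclic loess. For EB_PSC against ESC it was 3392 and 4454 as deposited, 3595 and 4408 after quantile normalization and 4282 and 3453 after cyclic loess. In the comparisons with EB_PSC only cyclic loess gave more higher than lower calls, while for PSC against ESC quantile normalization did so too. Differences that had not passed changed sign, and the cause was not tested. For PSC against ESC the mean of probe sets gave 0.082 for Mga and -0.070 for Pcgf6, array weights gave -0.080 for Dnmt3a, and leaving out 1 array gave -0.16 to 0.11 for Dnmt3a. For EB_PSC against PSC, Dnmt3a was -0.013 after quantile normalization and -0.082 to 0.10 without 1 array, Dnmt3b was -0.22 and Piwil4 -0.088 as means of probe sets, and Piwil4 was -0.024 to 0.63 without 1 array. For EB_PSC against ESC, Dazl was -0.0065 after quantile normalization, -0.0036 as the mean of its probe sets, and -0.10 to 0.19 without 1 array.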
